A study of Mus musculus with 6 samples.

Results

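The 10 genes described here encode molecules through which Tregs act on other cells, namely *Tnfrsf18*, *Tnfrsf4*, *Tnfrsf9*, *Tnfrsf1b*, *Entpd1*, *Nt5e*, *Lrrc32*, *Ebi3*, *Nrp1* and *Gpr83*. They were chosen by name as surface or secreted molecules of Treg suppression and of the adenosine pathway, and all 10 were found among the 56748 Ensembl genes measured. The study asked what happens to Treg polarization when phosphoglycerate mutase, an enzyme of glycolysis, is targeted with antisense oligonucleotides (ASOs), short synthetic nucleic acids that pair with a chosen RNA. RNA was sequenced from unsorted cultures of wild-type murine CD4 cells after 3 days. There were 3 libraries labelled scrambled ASO (scrambled libraries or replicates below) and 3 labelled *Pgam* ASO (*Pgam* libraries or replicates). Both groups started from naïve CD4 cells, enriched by depleting other cells, of the spleen and lymph nodes of C57BL/6 mice, activated with antibodies to CD3 and CD28 together with IL-2, TGF-β and antibodies blocking IFNγ and IL-4, and the ASOs were present from the start of culture. The libraries of a group are described as biological replicates, and whether that means separate animals or separate cultures is not given in the sources used here, so p-values measure the spread between these libraries. Total counts per library ran from 15860476 to 18032805.

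Tregs restrain other T cells by several routes. In the adenosine route, the ectoenzyme CD39 (*Entpd1*) strips phosphates from extracellular ATP down to AMP and CD73 (*Nt5e*) turns AMP into adenosine, which dampens effector cells through adenosine receptors. Receptors of the TNF superfamily on Tregs bind ligands from antigen-presenting and activated T cells and carry survival and growth signals, while GARP (*Lrrc32*) holds latent TGF-β at the cell surface and the product of *Ebi3* is a chain of inhibitory cytokines.

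The labels were checked first on the targeted genes. *Pgam1* was at 600, 478 and 707 CPM (counts scaled to library size by edgeR's TMM method) in scrambled replicates 1, 2 and 3, and at 658, 661 and 707 CPM in the *Pgam* replicates. The groups overlapped, at 0.18 on the log2 scale (standard error 0.13, adjusted p = 0.331), and 37.1% of the 31-base stretches of *Pgam1* also occur in a pseudogene, *Pgam1-ps2*, which had 749 counts over all 6 libraries, against 8847 or more for *Pgam1* in each library. With 1 library left out the log2 fold change of *Pgam1* ran from 0.048, without replicate 2 labelled scrambled ASO, to 0.33, without replicate 3 (adjusted p = 0.0532). *Pgam2*, the muscle form, was far lower, at 93, 125 and 46 counts against 48, 42 and 44 counts, with a log2 fold change of -0.84 (adjusted p = 0.0854). It was called with no filter (adjusted p = 0.0292) and without replicate 3 labelled scrambled ASO (adjusted p = 0.0147), and over all alternatives it ran from 0.0147 to 0.285. Neither transcript passed the threshold of 0.05 that is used throughout, so the libraries are named by their labels. A positive log2 fold change means more in the *Pgam* libraries, and an adjusted p, unless another fit or family is named, is a Benjamini-Hochberg value over all 14936 genes that went into edgeR's quasi-likelihood fit.

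All 10 genes passed the filter on low counts. Of these, 4 were called lower in the libraries labelled *Pgam* ASO, namely *Nt5e*, *Entpd1*, *Tnfrsf1b* and *Nrp1*, where 9.15% of all tested genes were called lower. Called higher were 0, where 8.03% of all tested genes were, and DESeq2 and limma-voom also called 0 higher, while at an unadjusted p under 0.05 there was 1, *Gpr83*. In either direction 17.2% of the tested genes were called. The groups did not overlap for 5 of the 10, the 4 called genes and *Gpr83*, against 39.5% of all tested genes. The median log2 fold change was -0.30 over the 10 genes and -0.0061 over all tested genes. In RNA from whole cultures, fewer cells carrying a transcript and less of it per cell cannot be told apart.

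**Figure D1:**
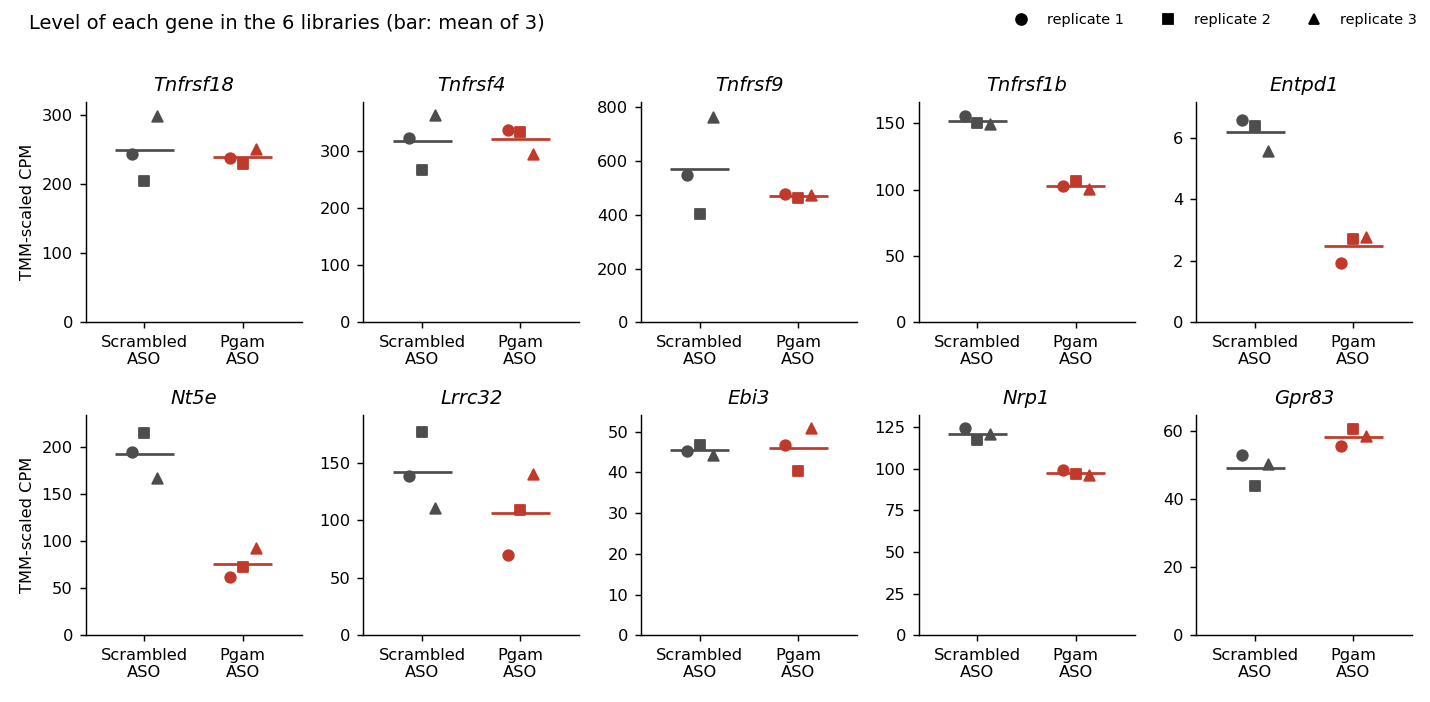
TMM-scaled CPM of each gene (vertical axis, starting at 0) in the 3 libraries labelled scrambled ASO (grey) and the 3 labelled *Pgam* ASO (red), with a marker shape for each replicate number and a bar at the mean. *Tnfrsf1b*, *Entpd1*, *Nt5e* and *Nrp1* lay lower in every library labelled *Pgam* ASO, *Gpr83* lay higher, and the other 5 genes overlapped.

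**Figure D2:**
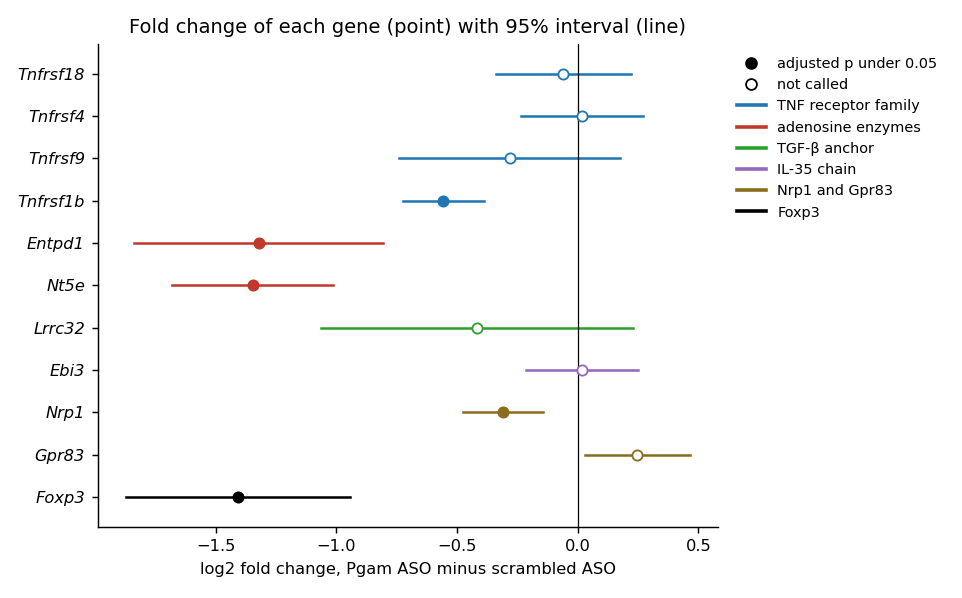
Log2 fold change of each gene and of *Foxp3* (point) with its 95% confidence interval from edgeR (line), filled where the adjusted p was under 0.05. *Nt5e* at -1.35 and *Entpd1* at -1.32 lay farthest from 0 among the 10 genes, near *Foxp3* at -1.41.

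Both ectoenzymes of the adenosine route fell. *Nt5e*, which encodes CD73, was at 195, 214 and 167 CPM in scrambled replicates 1, 2 and 3 and at 61.4, 72.8 and 92.3 CPM in the *Pgam* replicates. The lowest scrambled library was thus well above the highest *Pgam* library, and within each label replicate 3 lay closest to the other label. Mean levels of 192 ± 23.8 CPM (SD, n = 3) against 75.5 ± 15.6 CPM (SD, n = 3) made *Nt5e* 2.54-fold lower (log2 fold change -1.35, standard error 0.15, adjusted p = 0.00109). *Entpd1*, which encodes CD39, was a rare transcript, with 117, 118 and 90 counts in scrambled replicates 1, 2 and 3 and 31, 42 and 47 counts in the *Pgam* replicates. Scaled for depth these were 6.58, 6.37 and 5.58 CPM against 1.93, 2.69 and 2.78 CPM. Again every *Pgam* library was below every scrambled library, and the mean was 2.50-fold lower (log2 fold change -1.32, standard error 0.23, adjusted p = 0.00768). Both genes stayed past the threshold in all 6 fits that left out 1 library, with an adjusted p of at most 0.0171 for *Nt5e* and 0.0438 for *Entpd1*.

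The proportion between the 2 transcripts differed little between the labels. The log2 ratio of *Nt5e* over *Entpd1* CPM within a library was 4.88, 5.07 and 4.90 in scrambled replicates 1, 2 and 3, and 4.996, 4.75 and 5.05 in the *Pgam* replicates. The groups overlapped and their means differed by -0.020, less than the SD within either label, 0.10 and 0.16 (exact permutation test, two-sided p = 0.9; adjusted p = 0.9 over 3 ratios). With 3 libraries against 3 this test cannot go below 0.1. Since the transcripts differ in length, levels were compared per kilobase of merged exons, on which scale *Nt5e* was at 22.3 ± 2.77 and *Entpd1* at 1.11 ± 0.0952 CPM per kilobase (SD, n = 3) in scrambled libraries.

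The starts of these genes were examined for CG pairs, the sites at which mammalian DNA is methylated. The 250 bases before the RefSeq start of *Nt5e*, chr9:88327359-88327608 on the plus strand of GRCm38, hold 21 CG pairs, a number reached by 16.3% of the 32851 mouse promoters of the same length, and lie inside the first exon of a coding transcript in GENCODE M21. *Entpd1* has 2 starts in RefSeq, of which the upstream window at chr19:40612116-40612365 holds 18 CG pairs and the downstream one holds 8. The upstream *Entpd1* window, on the plus strand, is printed with that of *Tnfrsf1b*, another gene that fell, which lies on the minus strand at chr4:145246871-145247120 and holds 12. Both are shown so that the CG pairs, in capitals, can be seen in place, and both sequences, from RefSeq on GRCm38.p6, run 5′ to 3′ on the gene's own strand.
Entpd1: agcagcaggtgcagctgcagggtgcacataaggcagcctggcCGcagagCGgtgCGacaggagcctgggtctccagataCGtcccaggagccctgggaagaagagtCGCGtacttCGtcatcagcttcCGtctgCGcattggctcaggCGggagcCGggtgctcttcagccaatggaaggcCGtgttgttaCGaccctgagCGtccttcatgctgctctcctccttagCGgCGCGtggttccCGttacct
Tnfrsf1b: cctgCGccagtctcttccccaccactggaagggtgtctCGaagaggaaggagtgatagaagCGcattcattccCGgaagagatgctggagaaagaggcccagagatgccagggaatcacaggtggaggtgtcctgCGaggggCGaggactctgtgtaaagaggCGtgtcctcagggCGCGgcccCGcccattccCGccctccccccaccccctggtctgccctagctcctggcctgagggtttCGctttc
Across all promoters the median was 6 CG pairs, with quartiles of 2 and 16. The promoter table used here holds 11 windows for 9 of the 10 genes, all but *Lrrc32*. *Nrp1* had 11 CG pairs and *Gpr83*, which was not called, had 18. The windows of *Tnfrsf18* and *Ebi3* held 2, both windows of *Tnfrsf9* held 4, and that of *Tnfrsf4* held 5. Short factor motifs were then searched on both strands in these windows. TGANTCA (AP-1) was in 1 window, the downstream one of *Tnfrsf9*, and in 6.75% of all promoters, and TGTTTAC (forkhead) was in 0 windows and 3.17% of all promoters. TTCNNNGAA (STAT) was in 3 windows, those of *Tnfrsf18* and *Tnfrsf1b* and the downstream one of *Tnfrsf9*, and in 7.02% of all promoters. Of the 250 bases, 158 in the *Tnfrsf18* window and 81 in the downstream *Tnfrsf9* window lie in the gene's own GENCODE M21 exons. CACGTG (E-box) was in the *Tnfrsf4* window and in 6.02% of all promoters. Such matches describe letters in the window and do not show that a factor binds there, and methylation was not analysed here.

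A list of relatives of CD39, some of which act inside the cell, and of other surface enzymes was read beside this pair, and it also holds *Dpp4*, a surface peptidase. Of its 13 genes, 7 passed the filter, 2 were called lower and 1 higher, and the median log2 fold change of those tested was -0.28. *Cd38*, whose product consumes extracellular NAD, was called lower (log2 fold change -0.91, adjusted p = 0.00914). So was *Acpp*, an acid phosphatase that, like CD73, can dephosphorylate AMP (log2 fold change -1.06, adjusted p = 0.033). *Enpp1*, which splits ATP to AMP and pyrophosphate, was called higher, at 13.1, 12.04 and 15.8 CPM in scrambled replicates 1, 2 and 3 against 23.9, 21.3 and 19.0 CPM in the *Pgam* replicates (log2 fold change 0.65, adjusted p = 0.0187). Every *Enpp1* value labelled *Pgam* ASO was above every scrambled value. With 1 library left out at a time, *Cd38* remained past the threshold in 5 of 6 fits, *Enpp1* in 3 and *Acpp* in 1.

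A further list covered enzymes that make, remove or convert adenosine and its nucleotides within cells, with adenosine transporters. All 11 were tested, 1 was called lower and 1 higher, and their median log2 fold change was 0.13. These were *Nt5c2*, a cytosolic nucleotidase (log2 fold change -0.42, adjusted p = 0.0189, called in 3 of 6 left-out fits), and *Ampd2*, which converts AMP to IMP inside the cell (0.36, adjusted p = 0.0426, called in 1 of 6). *Ada*, the deaminase that destroys adenosine, was at 3.43, 2.92 and 3.47 CPM in scrambled replicates 1, 2 and 3 and 5.47, 6.22 and 4.32 CPM in the *Pgam* replicates. The groups did not overlap, but the test did not pass (log2 fold change 0.70, adjusted p = 0.0584). *Ada* was called by DESeq2 (adjusted p = 0.0467) and without replicate 3 labelled *Pgam* ASO (adjusted p = 0.0353), and its adjusted p ran from 0.0353 to 0.212 over the alternatives.

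A list of 13 genes held receptors for adenosine and nucleotides and *P2ry10*, named as their relative but reported to bind a lysolipid. Of these, 8 were tested, with a median log2 fold change of 0.57, 1 called lower and 2 higher, against 6 called higher with no filter and 1 with at least 10 counts in every library. *Adora2a*, the main adenosine receptor of T cells, was at 30.4, 29.5 and 32.03 CPM in scrambled replicates 1, 2 and 3 and at 28.0, 24.8 and 30.2 CPM in the *Pgam* replicates. These ranges overlapped (log2 fold change -0.15, 95% interval -0.39 to 0.093, adjusted p = 0.362). The abundant *P2ry10* fell (log2 fold change -0.88, adjusted p = 0.0107) and stayed called in all 6 left-out fits. The receptors called higher were near the bottom of the detectable range. *Adora3* had 1, 6 and 2 counts against 17, 11 and 17 (adjusted p = 0.0259), and *P2ry1*, a receptor for ADP, had 16, 12 and 16 counts against 69, 35 and 37 (adjusted p = 0.0159), and each was called in 3 of 6 left-out fits.

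**Figure D3:**
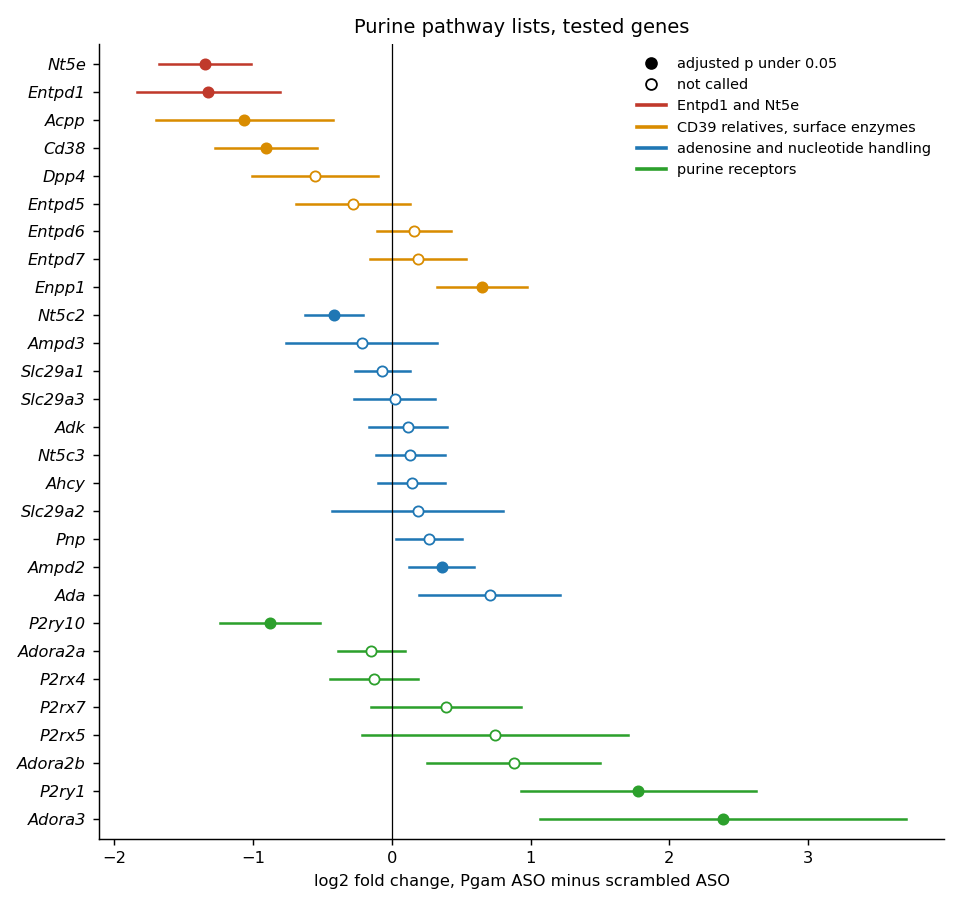
Log2 fold changes (points) with 95% confidence intervals (lines) of the tested genes of the purine lists, coloured by list and filled where the adjusted p was under 0.05. *Nt5e* and *Entpd1* are at the top, both left of 0, and *Ada* at 0.70 and *Adora2a* at -0.15 are not called.

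Among the 4 TNF receptor genes of the 10, only *Tnfrsf1b* passed the threshold. It encodes TNFR2, the receptor through which TNF promotes Treg growth, and was at 155, 150.3 and 149 CPM in scrambled replicates 1, 2 and 3 and at 102, 107 and 100.1 CPM in the *Pgam* replicates. The libraries of each label lay close together with a wide gap between the labels. The mean went from 152 ± 3.23 CPM to 103 ± 3.41 CPM (SD, n = 3), or 1.47-fold lower (log2 fold change -0.56, standard error 0.076, adjusted p = 0.00248). *Tnfrsf1b* stayed past the threshold in all 6 left-out fits, with an adjusted p of at most 0.0248.

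The other 3 receptors were abundant in every library and overlapped between the labels. *Tnfrsf18*, which encodes the costimulatory receptor GITR, was at 243, 204 and 298 CPM in scrambled replicates 1, 2 and 3 and at 237, 228 and 249.8 CPM in the *Pgam* replicates. *Tnfrsf4*, which encodes OX40, was at 324, 268 and 363 CPM and at 337, 333 and 296 CPM in the same order. For both genes all 3 *Pgam* libraries lay inside the scrambled range, and the 95% intervals of the log2 fold change were -0.34 to 0.22 for *Tnfrsf18* and -0.24 to 0.27 for *Tnfrsf4* (adjusted p = 0.769 and 0.932). *Tnfrsf9*, which encodes the activation-induced receptor CD137, was at 548, 403 and 763 CPM against 476, 462 and 472 CPM. Its scrambled libraries were the more scattered, with an SD of 181 CPM against 7.19 CPM, and its log2 fold change was -0.28 (95% interval -0.74 to 0.18, adjusted p = 0.353). Without replicate 2 labelled scrambled ASO, where *Tnfrsf9* was lowest, the log2 fold change was -0.48 with an adjusted p of 0.0373, and over all alternatives the adjusted p ran from 0.0373 to 0.931.

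*Tnfrsf4* and *Tnfrsf18* lie close together on chromosome 4, both on the plus strand and 9551 bases apart in GENCODE M21, with 2 other genes between them. Their log2 ratio within a library was 0.42, 0.39 and 0.28 in scrambled replicates 1, 2 and 3 and 0.51, 0.55 and 0.24 in the *Pgam* replicates. The ranges overlapped and the means differed by 0.069 (exact permutation test, two-sided p = 0.6, adjusted p = 0.9 over 3 ratios). *Tnfrsf18* shares 21.9% of its 31-base stretches with the antisense gene *Gm16008*, and summing both left *Tnfrsf18* not called.

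Among the ligands *Lta* was the most abundant. Of 5 ligand genes, 4 were tested, 0 were called by edgeR and limma-voom and 1 was called higher by DESeq2, with 1 higher at an unadjusted p under 0.05. *Tnfsf18*, the GITR ligand, had a count of 0 in all 6 libraries, and *Tnfsf4*, the OX40 ligand, was at 7.10 to 10.04 CPM in all of them (log2 fold change -0.19, adjusted p = 0.456). *Tnfsf9*, the CD137 ligand, was at 9.23 to 10.2 CPM in the scrambled libraries and at 6.96 to 8.70 CPM in the *Pgam* replicates (log2 fold change -0.36, adjusted p = 0.15). The TNFR2 ligands lay the other way, as *Tnf* ran from 48.8 to 67.6 CPM against 73.7 to 76.5 CPM (log2 fold change 0.31, adjusted p = 0.0922) and *Lta* from 274 to 598 CPM against 680 to 733 CPM (log2 fold change 0.61, adjusted p = 0.15). For *Tnf* and *Lta* every *Pgam* library was above every scrambled one without passing the test. *Lta* was called by DESeq2 (adjusted p = 0.0219) and without replicate 2 labelled scrambled ASO (log2 fold change 0.34, adjusted p = 0.0370), and *Tnf* was called with no filter (adjusted p = 0.0260). The highest adjusted p over the alternatives was 0.417 for *Lta* and 0.222 for *Tnf*.

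Downstream of these receptors, all 11 genes for adaptors and regulators were tested, 4 were called lower and 0 higher, and the median log2 fold change was -0.13. DESeq2 and limma-voom also called 0 of them higher, as did an unadjusted p under 0.05. *Traf1*, an adaptor bound by TNFR2 and CD137, fell from 272, 287 and 264 CPM in scrambled replicates 1, 2 and 3 to 189, 171 and 178 CPM in the *Pgam* replicates (log2 fold change -0.61, adjusted p = 0.00211). Its libraries were as cleanly separated as those of *Tnfrsf1b*, and it stayed called in all 6 left-out fits. The others were *Tnfaip3*, which encodes the NF-κB inhibitor A20 (-0.58, adjusted p = 0.00813), and the ubiquitin ligase genes *Birc2* (-0.74, adjusted p = 0.0107) and *Birc3* (-0.28, adjusted p = 0.0331), which were called in 5, 5 and 2 of 6 left-out fits.

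In the rest of the TNF receptor superfamily, 18 of 24 genes were tested, with 5 called lower, 3 called higher and a median log2 fold change of -0.31. The 4 with the smallest adjusted p were *Tnfrsf23*, a decoy receptor (log2 fold change -1.99, adjusted p = 0.00868), *Tnfrsf8* (1.90, adjusted p = 0.00914), *Tnfrsf14* (-0.88, adjusted p = 0.0116) and the death receptor gene *Fas* (-1.20, adjusted p = 0.0141). *Tnfrsf8*, which encodes the activation marker CD30, rose from 39.0, 26.6 and 56.9 CPM in scrambled replicates 1, 2 and 3 to 178, 152 and 127 CPM in the *Pgam* replicates. Unlike *Tnfrsf18*, *Tnfrsf4* and *Tnfrsf9*, the labels were far apart for *Tnfrsf8*, and it was called in all 6 left-out fits, against 5 for *Tnfrsf23* and *Tnfrsf14* and 3 for *Fas*.

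**Figure D4:**
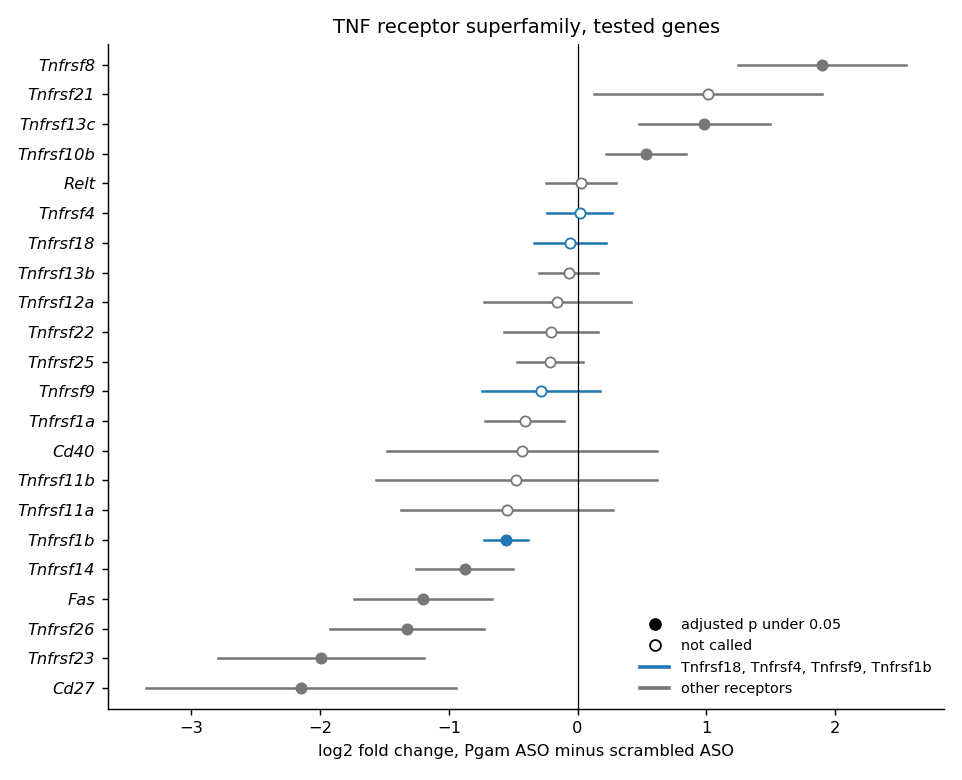
Log2 fold changes (points) with 95% confidence intervals (lines) of the tested TNF receptor superfamily genes in order of size, filled where the adjusted p was under 0.05. *Tnfrsf18*, *Tnfrsf4* and *Tnfrsf9* (blue, open) sit near 0, *Tnfrsf8* is highest at 1.90 and *Cd27* lowest at -2.15, and *Tnfrsf1b* (blue, filled) is at -0.56.

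For *Lrrc32*, the GARP gene, the difference between the labels was about as large as the spread within them. It was at 139, 177 and 111 CPM in scrambled replicates 1, 2 and 3 and at 70.1, 109 and 140 CPM in the *Pgam* replicates. Replicate 3 of the *Pgam* libraries was above 2 of the 3 scrambled ones, and the log2 fold change was -0.42 (95% interval -1.06 to 0.23, adjusted p = 0.32). With 1 library left out it ran from -0.67, without replicate 3 labelled *Pgam* ASO, to -0.19, without replicate 1 labelled *Pgam* ASO, and was not called. *Lrrc32* was highest in replicate 2 and lowest in replicate 3 labelled scrambled ASO, and lowest in replicate 1 and highest in replicate 3 labelled *Pgam* ASO. *Nt5e* had the same highest and lowest libraries within both labels, and so did *Foxp3*, the Treg lineage factor, at 282, 371 and 222 CPM against 89.7, 109 and 131 CPM (log2 fold change -1.41, adjusted p = 0.00567). This order was not particular to Treg genes, as *Fas*, *Il6st*, *Birc2*, *Tnfaip3*, *S1pr1* and *Pecam1* had it too. How many of all tested genes had it was not counted. *Tnfrsf18*, *Tnfrsf4* and *Tnfrsf9* instead were lowest in replicate 2 and highest in replicate 3 labelled scrambled ASO.

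*Tgfb1*, whose latent product GARP holds, was at 257, 252 and 274 CPM in scrambled replicates 1, 2 and 3 and at 356, 298 and 285 CPM in the *Pgam* replicates. The labels did not overlap but the difference did not pass (log2 fold change 0.26, adjusted p = 0.0885). *Tgfb1* was called with no filter (adjusted p = 0.0460) and without replicate 3 labelled *Pgam* ASO (adjusted p = 0.0480), and its adjusted p reached 0.299 over the alternatives. The log2 ratio of *Lrrc32* over *Tgfb1* was -0.89, -0.51 and -1.31 against -2.35, -1.45 and -1.03, so that the labels overlapped through replicate 3 of each. The means differed by -0.71 (exact permutation test, two-sided p = 0.2, adjusted p = 0.6 over 3 ratios), and by -0.34 without replicate 1 labelled *Pgam* ASO. Of 13 genes of TGF-β storage, release and sensing, 10 were tested, 3 were called lower and 2 higher, with a median log2 fold change of -0.17. The 4 with the smallest adjusted p were *Tgfbr3*, a coreceptor (0.75, adjusted p = 0.00137), *Tgfbr1*, a signalling receptor (-0.50, adjusted p = 0.00867), *Itgb8*, the integrin chain that frees TGF-β from GARP (-1.71, adjusted p = 0.0117), and *Nrros*, a GARP relative (0.42, adjusted p = 0.0219). They were called in 6, 5, 4 and 3 of the 6 left-out fits. *Itgb8* was low in every library, at 2.48 to 3.71 CPM against 0.651 to 1.18 CPM.

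*Ebi3*, the chain that joins p35 in IL-35 and p28 in IL-27, was at 45.2, 46.7 and 44.2 CPM in scrambled replicates 1, 2 and 3 and at 46.7, 40.2 and 50.9 CPM in the *Pgam* replicates. The scrambled libraries lay inside the *Pgam* range, and the log2 fold change was 0.018 (95% interval -0.21 to 0.25, adjusted p = 0.923). *Ebi3* shares 19.0% of its 31-base stretches with the overlapping antisense gene *Gm16712*, and summing both left it not called. *Il12a*, which encodes p35, had 3, 5 and 2 counts against 5, 1 and 0 counts, below the filter, so the partner of *Ebi3* was hardly detectable at this depth. Of 10 genes for IL-12 family cytokines and their receptors, 5 were tested, 1 was called lower and 1 higher, and the median log2 fold change was -0.48. DESeq2 called 3 lower and limma-voom 2, and with the replicate block 0 were called in either direction. Those called in the main comparison were the cytokine gene *Clcf1* (-1.32, adjusted p = 0.0276) and *Il12rb1* (0.56, adjusted p = 0.0363), each called in 2 of 6 left-out fits. *Il6st*, which encodes the shared receptor chain gp130, was at 71.0, 110.0 and 49.9 CPM in scrambled replicates 1, 2 and 3 against 14.8, 20.5 and 36.6 CPM in the *Pgam* replicates. The labels were apart, yet the adjusted p was 0.0502 (log2 fold change -1.68). *Il6st* was called by DESeq2 (adjusted p = 0.00882), by limma-voom (0.0141), with library size alone (0.0482), without ribosomal and mitochondrial genes (0.0493), with at least 10 counts in every library (0.0299), and without replicate 3 labelled scrambled ASO (0.0378) or *Pgam* ASO (0.0184). Its adjusted p reached 0.161 with no filter.

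*Nrp1*, the semaphorin and VEGF coreceptor neuropilin-1 found on many Tregs, fell slightly. It was at 124, 117 and 121 CPM in scrambled replicates 1, 2 and 3 and at 99.3, 96.6 and 95.9 CPM in the *Pgam* replicates. The spread within each label was small beside the gap, and the mean was 1.24-fold lower (log2 fold change -0.31, standard error 0.075, adjusted p = 0.0241). The call was lost without replicate 1 labelled scrambled ASO (adjusted p = 0.104) and without replicates 1 or 2 labelled *Pgam* ASO (adjusted p = 0.0618 and 0.113). It was also lost with a block for replicate number (adjusted p = 0.0734). Over all alternatives the adjusted p ran from 0.00958 to 0.113 with log2 fold changes from -0.35 to -0.29. Of 16 partner genes, 11 were tested, 1 was called lower and 2 higher, with a median log2 fold change of 0.23. The called genes encode plexins, with which neuropilin-1 signals or which bind semaphorins, namely *Plxna3* (-0.57, adjusted p = 0.015), *Plxnc1* (0.67, adjusted p = 0.0192) and *Plxnd1* (0.42, adjusted p = 0.0253), called in 4, 4 and 2 of 6 left-out fits. With no filter, 3 partner genes were called lower and 3 higher, and DESeq2 called 2 lower and 2 higher. *Sema4a*, a *Nrp1* ligand, ran from 76.7 to 117 CPM in the scrambled libraries and from 92.6 to 117 CPM in the *Pgam* replicates (log2 fold change 0.12, adjusted p = 0.616).

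*Gpr83*, a G protein-coupled receptor enriched in Tregs, lay the other way. It was at 53.1, 44.0 and 50.4 CPM in scrambled replicates 1, 2 and 3 and at 55.7, 60.8 and 58.5 CPM in the *Pgam* replicates. Each *Pgam* library was above each scrambled one, though the gap to the highest scrambled library was small. The test did not pass (log2 fold change 0.25, 95% interval 0.032 to 0.46, adjusted p = 0.0993), and over the alternatives the adjusted p ran from 0.097 to 0.283.

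The order of levels was compared per kilobase of merged exons, within the libraries labelled scrambled ASO. *Tnfrsf4* was highest at 233 ± 35.1 CPM per kilobase (SD, n = 3), followed by *Tnfrsf9* at 209.9 ± 66.4 and *Tnfrsf18* at 163 ± 31.03, and neighbours in this trio overlapped. A gap separated them from *Tnfrsf1b* at 39.7 ± 0.846 and *Ebi3* at 39.3 ± 1.11, which overlapped. *Lrrc32* at 30.3 ± 7.07 and *Nt5e* at 22.3 ± 2.77 came next and overlapped, and below them *Nrp1* at 12.3 ± 0.377, *Gpr83* at 9.64 ± 0.918 and *Entpd1* at 1.11 ± 0.0952 CPM per kilobase were each apart from their neighbours. In the libraries labelled *Pgam* ASO the same trio led, *Ebi3* stood above *Tnfrsf1b* at 39.8 ± 4.65 against 27.0 ± 0.893 with no overlap, and *Nt5e* at 8.78 ± 1.82 was below *Gpr83* at 11.4 ± 0.496 and *Nrp1* at 9.94 ± 0.185 CPM per kilobase, overlapping *Nrp1*. *Entpd1* stayed last at 0.442 ± 0.0844 CPM per kilobase. Isoforms were not separated, so a gene read mostly as a short form is understated on this scale.

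**Figure D5:**
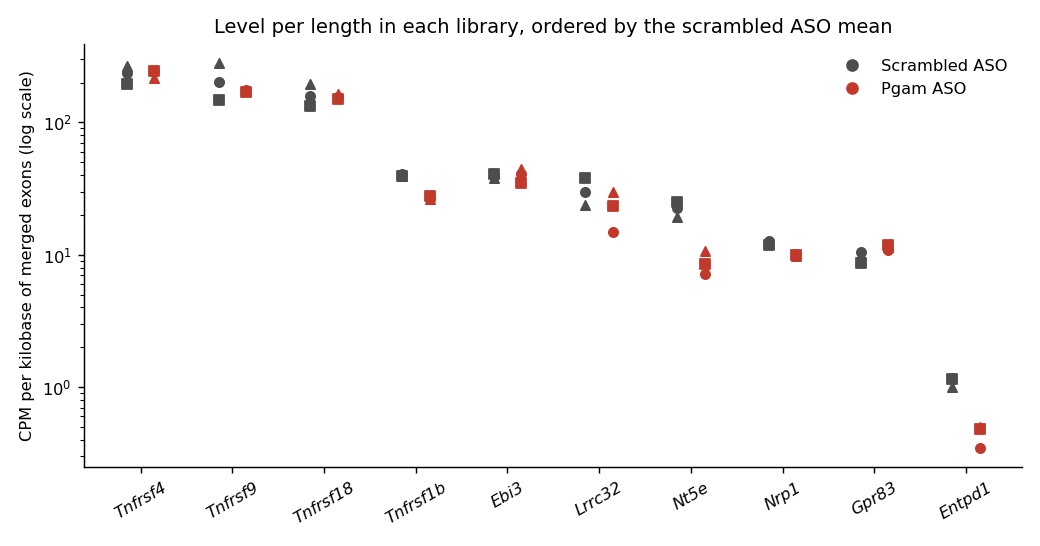
CPM per kilobase of merged exons (vertical axis, log scale) of each gene in every library, grey for scrambled ASO and red for *Pgam* ASO, ordered by the mean in the libraries labelled scrambled ASO. *Tnfrsf4*, *Tnfrsf9* and *Tnfrsf18* lie above 100 CPM per kilobase in all 6 libraries, *Entpd1* lies lowest in all 6, and *Nt5e* drops below *Gpr83* in the red libraries.

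The cells were read against markers for context. Of 18 other core Treg genes, 17 were tested, 2 were called lower and 1 higher, and the median log2 fold change was -0.21. At an unadjusted p under 0.05 there were 6 lower and 3 higher, and with no filter 5 were called lower and 3 higher. *Foxp3* fell beside *Nt5e* and *Entpd1* and stayed called in all 6 left-out fits, *Ikzf2* was called lower (-0.57, adjusted p = 0.0484, called in 2 of 6), and *Il2ra*, the CD25 gene, was called higher (0.52, adjusted p = 0.0185, called in 3 of 6). Of 5 genes that mark naïve or activated T cells, 3 were called lower and 1 higher, their summed level was 1333, 1441 and 1342 CPM in scrambled replicates 1, 2 and 3 and 623, 621 and 701 CPM in the *Pgam* replicates, and none was at 0. The most abundant, *Ccr7*, held 52.7% of the list's level and fell by 1.87 on the log2 scale (adjusted p = 9.27e-05). *S1pr1* fell by 0.84 (adjusted p = 0.0483). Of the markers of activated cells, *Cd69* fell by 0.72 (adjusted p = 0.00639) and *Cd44* was called higher (0.38, adjusted p = 0.039). Calls were made in 6, 2, 5 and 1 of 6 left-out fits for *Ccr7*, *S1pr1*, *Cd69* and *Cd44*. Thus *Ccr7*, *S1pr1* and *Cd69* moved with *Nt5e* and *Entpd1*, and *Cd44* moved the other way. The part of these markers in the differences of *Nt5e* and *Entpd1* was not tested.

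Markers of CD4 T cells were abundant, and their 8 genes summed to 3808, 3809 and 3755 CPM in scrambled replicates 1, 2 and 3 against 3499, 3586 and 3638 CPM in the *Pgam* replicates, without overlap. Of these, 1 was called lower, *Cd28* (log2 fold change -0.66, adjusted p = 0.00183, called in all 6 left-out fits), while at an unadjusted p under 0.05 there were 5 lower and 1 higher. Of 2 CD8 genes, summing to between 10.8 and 15.7 CPM, *Cd8a* was called higher at 2.23 to 3.08 CPM against 3.66 to 7.02 CPM (adjusted p = 0.0286, called in 4 of 6). The more abundant *Cd8b1*, with 67.8% of the list's level, lay the other way and was not called (log2 fold change -0.20, adjusted p = 0.454). Lists for B, myeloid, NK, granulocyte and erythroid cells each summed to at most 15.4 CPM, and the sums of 2 of these 5 lists differed between the labels without overlap. The 10 myeloid and dendritic cell genes, with *Siglech* and *Clec9a* at 0, summed to 14.1, 15.2 and 15.4 CPM in scrambled replicates 1, 2 and 3 against 11.9, 9.94 and 10.7 CPM in the *Pgam* replicates, and *Zbtb46* was the most abundant. The 9 granulocyte and mast cell genes summed to 3.83, 3.19 and 2.35 CPM against 7.95, 6.54 and 4.97 CPM in the same order, and *Cpa3*, the most abundant, was above in every *Pgam* library (adjusted p = 0.0526). The part of these cells in the differences of the 10 genes was not tested. The other 3 of these lists overlapped between the labels, with the 6 B cell genes summing to between 7.13 and 11.8 CPM. The 5 NK cell genes summed to between 0.496 and 1.07 CPM, with *Klrb1c* and *Klra8* at 0. The 5 erythroid genes summed to between 1.55 and 2.70 CPM, with *Hba-a2* at 0. In these 5 lists edgeR called 0 of 14 tested genes, with 5 at an unadjusted p under 0.05, 3 called by DESeq2 and 1 by limma-voom. Of 5 endothelial and stromal genes, 1 was called lower, *Pecam1*, which T cells also express and which held 97.8% of the list's level (log2 fold change -1.39, adjusted p = 0.0412, called in 2 of 6), with the list summing to between 66.1 and 149 CPM against 29.8 to 50.3 CPM, without overlap.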

How the data were processed

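The values are estimated counts from Kallisto for each Ensembl gene, which the authors supplied unnormalized in 1 table and already as integers, so rounding changed no value. The submitters' processing notes name the GRCm38 build, and the Kallisto version, the annotation and the way transcripts were summed are not given in the sources used here. Of the 56748 genes, 52073 are in the GENCODE M21 annotation of the reference chromosomes, which gave exon lengths and positions, and 4675 are not in it. The fit used edgeR 4.0.16 in R 4.3.3 (filterByExpr defaults, TMM scaling, robust quasi-likelihood test, two-sided) on the whole table, which left 14936 genes for testing. Intervals at 95% were computed from the fold change, its standard error and the fit's degrees of freedom. Replicate number was not a term of the model. Chi-square per degree of freedom, over genes with at least 10 counts in a pair, ran from 6.75 to 23.6 within a label. Between labels it ran from 15.3 to 76.3, so no library was a copy of another but the ranges overlapped. The value was 15.3 for replicate 3 of one label against replicate 3 of the other. It was 23.6 for scrambled replicates 2 and 3, and 18.1 for *Pgam* replicates 1 and 3.

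The 10 genes and the lists of partners and markers were chosen with earlier results of these data known. The genes named are these 10, *Pgam1*, *Pgam2*, *Foxp3*, a fixed set of direct partners, and in each list every gene with an adjusted p under 0.05, or the 4 with the smallest where more were called, and markers at 0 or most abundant in a list. *Dpp4* and *Cd27* were named to describe their list or figure. Sharing of 31-base stretches between genes, among which Kallisto splits reads, was measured in GENCODE M21 transcripts. Whether counting used strand is not given in the sources used here, so a gene and its antisense partner may not be separable. The alternatives were DESeq2 1.42.0, limma-voom (limma 3.58.1), RLE scaling, library size alone, a fit without ribosomal and mitochondrial genes, no filter, a filter of at least 10 counts per library, a block for replicate number, the omission of each library, an adjusted p under 0.01, a minimum of 1 for the absolute log2 fold change, and counts summed over genes sharing at least 10% of these stretches. Promoter sequences are those of RefSeq on GRCm38.p6.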

Additional observations from a re-analysis of the deposited data

How the results depend on the processing

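Each of the 10 genes was examined under 17 alternatives, 2 of them stricter thresholds on the same fit. *Nt5e* and *Entpd1* were called lower in all 17, with log2 fold changes from -1.52 to -1.22 and from -1.42 to -1.17, and *Tnfrsf1b* in 16, its log2 fold change of -0.56 falling short only of the minimum absolute change of 1, by which 2 of the 10 genes were called lower against 4. *Nrp1*, at -0.31, was not called with that rule, at an adjusted p under 0.01, or with the replicate block (adjusted p = 0.0734), and its log2 fold change was between -0.33 and -0.29 with 1 library left out. *Tnfrsf9* ran from -0.48 to -0.018 with 1 library left out and was called once. The direction of *Tnfrsf18*, *Tnfrsf4* and *Ebi3*, not called under any alternative, flipped in 1, 4 and 4 of them. With 1 library left out they ran from -0.18 to 0.093, from -0.093 to 0.12 and from -0.066 to 0.10, *Lrrc32* from -0.67 to -0.19 and *Gpr83* from 0.17 to 0.30. No member was called higher in any of the 17. The replicate block gave 1235 called genes against 2565, and equal replicate numbers did not deviate together (r from -0.28 to 0.079), so the numbers were not taken as pairs; *Nrp1* was the only one of the 10 whose call it changed. Leaving out 1 library gave between 377 called genes, without replicate 2 labelled *Pgam* ASO, and 3448, without replicate 3 labelled scrambled ASO. An adjusted p under 0.01 left 453 and the minimum absolute change of 1 left 674. There were 34 partner and marker genes named and called, *Foxp3* and *Cd27* not counted. Of these 34, 6 were called with each library left out in turn and 22 with the replicate block. Under any alternative 0 of them changed sign. Depth limits *Entpd1*, *Il12a*, *Adora3* and the other genes with few counts.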
